A study of Mus musculus with 3 samples.

Results

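FLI1 reads were set against input reads at the start of every mouse protein-coding gene, and the genes were ranked by the ratio. A gene start was the 5' end of the gene record in the GENCODE M1 annotation of mm9, and its window reached 1 kb to either side. Of 37310 annotated genes, the 22367 protein-coding genes on the numbered chromosomes, X and Y were ranked. No peak call entered the ranking. The value for each gene was log2((FLI1 + 5)/(input + 5)), with the input count first multiplied by 2.89 to bring it to the FLI1 depth, and it is called the log2 ratio here.

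The 3 libraries came from wild-type CD1 mice, with 1 library per antibody, at embryonic day 15 (E15) by the labels, whereas the study's methods give E14. All 3 were made from fetal liver cells cultured for 5 days in thrombopoietin and enriched as mature megakaryocytes, which the study calls MK_Mat, on albumin gradients after removal of other lineages. The labels list CD41, itself a megakaryocyte marker, among the depleting antibodies used across the study's lineages, and the methods do not list it for megakaryocytes. One was precipitated with an antibody against FLI1, one with an antibody against RUNX1, and one was input DNA without precipitation. By the study's methods, DNA of at least 3 precipitates was pooled for sequencing, and pooling of the input is not described. Each group has 1 library, so the groups hold no replicates, and no test between them was possible. Intervals of ratios of sums cover read-counting error only, and intervals of shares are binomial intervals that treat genes as independent, although genes with overlapping windows count the same reads. The files gave read positions and no RNA, so the identity of the cells could not be checked against marker transcripts. The labels name sonication, whereas the study's methods tie the input control to micrococcal nuclease digestion, and these accounts cannot be told apart from the files.

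FLI1 is a transcription factor of the ETS family, whose members bind DNA through a winged helix-turn-helix domain at sites with a GGAA core. It is needed for megakaryocyte maturation and platelet production, and its known targets include genes for platelet glycoproteins. RUNX1 belongs to another family with another recognition sequence and acts in the same lineage. Promoters rich in CpG dinucleotides mostly serve genes used by every cell, and promoters poor in CpG mostly serve genes of a single tissue.

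The FLI1 library held 62946422 mapped positions without the mitochondrial genome, RUNX1 held 3973856, and input held 21745220 after repeated positions were reduced to 1 per strand. The study's supplement gives many more uniquely mapped reads for RUNX1 than this file holds, and also more for FLI1. The reason for this was not tested. A typical window held 70 FLI1 reads, 19 input reads and 4 RUNX1 reads (medians), which gave a median counting error of 0.34 on the log2 scale. In 542 windows both FLI1 and input were at 0, and these genes carry a log2 ratio of exactly 0 that says nothing of occupancy. In 2490 windows input was below 10 reads.

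Sequences upstream of 4 gene starts are shown first, because they hold the ETS words to which the ranking is related later. They belong to Rpl37, a protein of the large ribosomal subunit, Mcl1, an anti-apoptotic BCL2 relative, Utp3, a factor of ribosome assembly, and Gp1ba, a chain of the platelet receptor for von Willebrand factor. The stretches are mm9 chr15:5066513-5066612, chr3:95462543-95462642, chr5:88983299-88983398 and chr11:70452524-70452623, all on the plus strand and all ending before the annotated start. Capitals mark an ETS word, which here means the letters CCGGAAG, with A in place of the last G allowed and with CA in place of the leading CC allowed, on either strand. These genes were chosen for display after their values were seen.
Rpl37: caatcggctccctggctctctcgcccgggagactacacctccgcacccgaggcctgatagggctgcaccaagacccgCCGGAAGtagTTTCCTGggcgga
Mcl1: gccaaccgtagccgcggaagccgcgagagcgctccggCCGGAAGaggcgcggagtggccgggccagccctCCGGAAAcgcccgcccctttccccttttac
Utp3: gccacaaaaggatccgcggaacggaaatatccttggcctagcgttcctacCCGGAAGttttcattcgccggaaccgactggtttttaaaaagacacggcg
Gp1ba: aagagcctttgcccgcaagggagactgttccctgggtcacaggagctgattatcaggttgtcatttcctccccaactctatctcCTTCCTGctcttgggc

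After reads were moved 75 bp towards the fragment centre, the Rpl37 stretch of 100 bp held 110 FLI1 reads, 0 input reads and 1 RUNX1 read. The Mcl1 stretch held 149, 1 and 0 reads in the same order. The Utp3 stretch held 135, 0 and 1, and the Gp1ba stretch held 124, 1 and 1. So few input reads are ordinary in 100 bp, since a typical whole window held 19. FLI1 reads were dense over these words, while the FLI1 library was only 2.89 times as deep as the input. Not every such stretch was like this: stretches of the same length with 1 ETS word upstream of Itgb3 and Runx1 held 18 and 29 FLI1 reads and 0 input reads.

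The whole ranking was shifted towards FLI1. The median log2 ratio was 0.44, the quartiles were -0.17 and 1.35, and 14764 genes (66.0%) lay above 0. A ratio of at least 2-fold was reached by 7613 genes, which is 34% of those ranked, and at least 4-fold by 2368 genes (10.6%). At the other end, 772 genes (3.45%) were at or below 0.5-fold. These outer counts depended on the settings: genes at 4-fold numbered 615 in windows reaching 2 kb and 4356 in windows reaching 500 bp, and genes at or below 0.5-fold numbered 159 with a pseudocount of 20 in place of 5. Most of the remaining genes were close to the input, since 8640 genes (38.6%) lay within 0.5 of 0 on the log2 scale. Without the input, using FLI1 reads 5 to 10 kb to either side of each start as the reference, 7147 genes (32%) reached 2-fold. Of the 7613 genes at 2-fold over input, 77.3% also reached 2-fold over their own flanks, and across all 22367 genes the rankings had a Spearman correlation of 0.785, where both share the FLI1 count of the window.

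**Figure D1:**
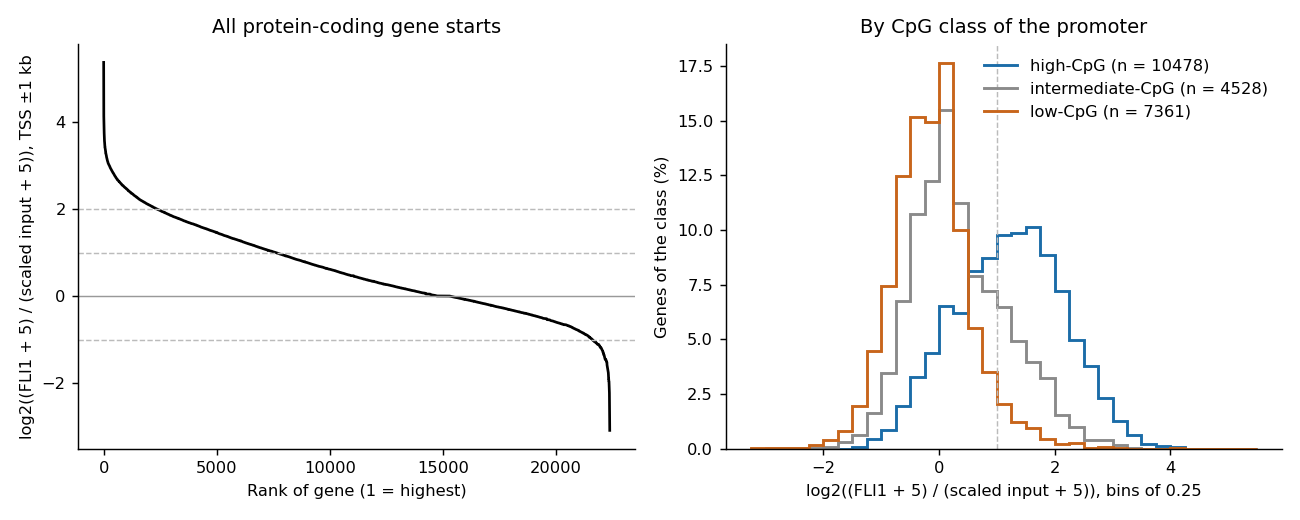
Left, the log2 ratio of FLI1 over scaled input (vertical axis) of all 22367 genes by rank (horizontal axis), with dashed lines at 4-fold, 2-fold and 0.5-fold. Right, the share of genes of each CpG class (vertical axis, percent) in bins of the log2 ratio (horizontal axis), where the high-CpG curve has its median at 1.24 and the low-CpG curve at -0.14.

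The ranking differed plainly by the CpG content of the promoter. Among 10478 high-CpG promoters the median log2 ratio was 1.24, and 6218 genes (59.3%, 95% interval 58.4 to 60.3) reached 2-fold. Among 4528 intermediate promoters the median was 0.23 and 1004 genes (22.2%) reached 2-fold. Among 7361 low-CpG promoters the median was -0.14 (0.04 with the FLI1 flanks as reference, which turns its sign) and only 391 genes (5.31%) reached 2-fold, while 588 (7.99%) were at or below 0.5-fold and made up most of the 772 such genes. The difference lay in the FLI1 reads, with medians of 132, 64 and 49 per window from high to low CpG, since input medians were 18, 20 and 19.

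RUNX1 followed the same order to a smaller degree. Summed over all windows of a class and scaled by depth, FLI1 reads were 2.79 times the input at high-CpG promoters (2.78 to 2.81), 1.51 times at intermediate ones and 0.97 times at low-CpG ones. The corresponding RUNX1 sums were 2.00 (1.98 to 2.01), 1.35 and 0.91 times the input. The intermediate sums depended on 2 starts, Gm10800 and Gm10801, and on how repeated input positions were treated. With repeats kept they were 0.51 for FLI1 and 0.46 for RUNX1, below the input, and without these 2 starts as well, a choice made after seeing the data, they were 1.32 and 1.10. FLI1 therefore exceeded RUNX1 by 1.40 times (1.39 to 1.41) at high-CpG promoters. What the RUNX1 and input signals share with the FLI1 signal at these starts was not tested.

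Read density around the start gave the shape behind these sums. At high-CpG promoters FLI1 reached 3.51 RPKM (reads per kilobase, scaled to the depth of the library) in the 100-bp bin centred 50 bp upstream of the start, which was 7.28 times the density 4 to 5 kb away. RUNX1 peaked in the same bin at 1.63, which was 3.48 times its flank. The input fell over the same region to 0.285 in the bin centred at +250 bp, 0.567 times its own flank. The part of this dip in the window ratios was not tested. The FLI1 maximum was 1.66 at intermediate promoters and 0.642 at low-CpG promoters, also 50 bp upstream. Within the 7613 genes at 2-fold or more, 59.3% had their densest 100-bp bin between 200 bp upstream and 100 bp downstream of the start. These genes were chosen by FLI1 reads in windows centred on the start, which itself favours such bins. The share over all genes was not counted.

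**Figure D2:**
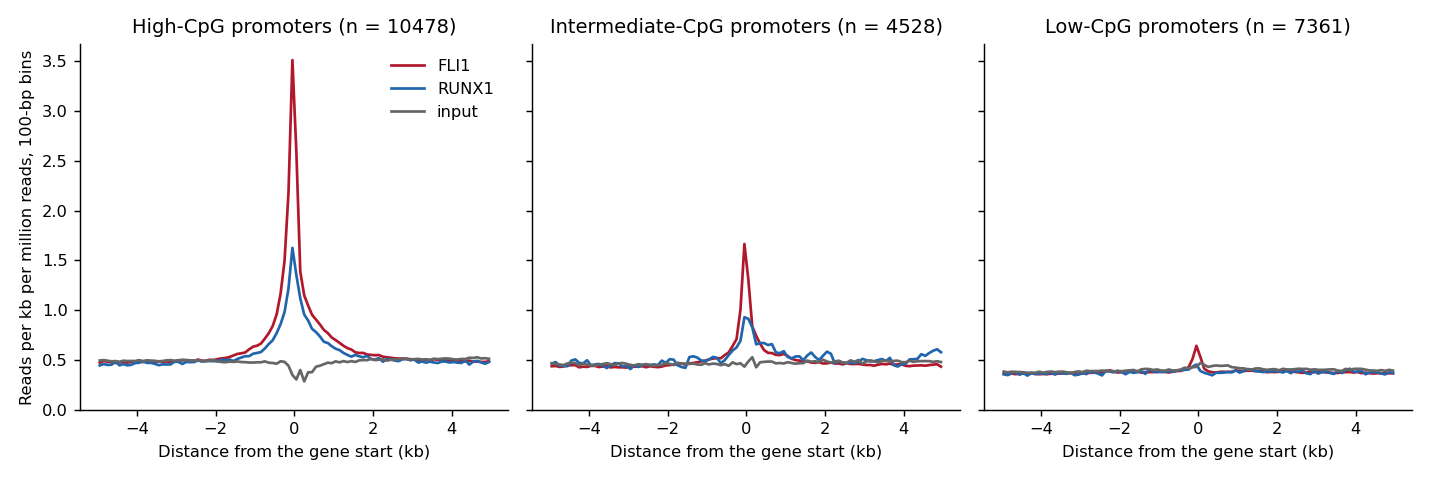
Mean read density (vertical axis, RPKM, 100-bp bins) by distance from the gene start (horizontal axis, kb) for FLI1, RUNX1 and input, in 1 panel per CpG class. FLI1 peaks at 3.51, 1.66 and 0.642 just upstream of the start from high to low CpG, and the input dips to 0.285 just downstream of it at high-CpG promoters.

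The 20 highest genes with at least 10 input reads held 391 to 707 FLI1 reads against 10 to 19 input reads and 5 to 23 RUNX1 reads, with log2 ratios of 3.43 to 4.01. All 20 had high-CpG promoters, beside 46.8% of all genes. Of the 20, 17 had an ETS word within 250 bp of the start, beside 44.4% of the high-CpG class. Over all annotated transcript starts of each gene, their log2 ratios were 1.13 to 4.01. Utp3 led with 587 FLI1, 11 input and 9 RUNX1 reads and a log2 ratio of 4.01. The chaperone gene Hspa4 followed with 516, 10 and 15 reads and 3.94. Ublcp1, a phosphatase of the proteasome, had 489, 10 and 10 reads and 3.86.

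The Fli1 gene itself came next among them. Its start on chromosome 9 at position 32348974 held 541 FLI1, 12 input and 14 RUNX1 reads, a log2 ratio of 3.78 at rank 19 of all genes, and its value over its own flanks was 2.57. No ETS word lay within 250 bp of that start. Actin-regulating and adhesion genes were also in the top 20, with 561 FLI1 and 13 input reads at Zyx (zyxin of focal adhesions, 3.73) and 707 and 17 at Cap1 (an actin-monomer-binding protein, 3.72). Further members were the sodium-proton exchanger Slc9a8, the phosphatase subunit Ppp4c, the splicing factor U2af2, Fbxo36, Mcl1, the cytokine receptor chain Il3ra, the signalling scaffold Shoc2, the kinase subunit Pik3ca, Ccdc77, the RAB5 exchange factor Rabgef1, Rpl37 and the neighbours Zfp646 and Zfp668. The last pair start 32 bp apart and count almost the same reads, 652 and 641, and Fbxo36 and Ccdc77 each have another gene start within 1 kb, so the reads cannot be assigned to 1 gene of such a pair.

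With the input minimum lifted, the first place went to 4931440P22Rik, with 203 FLI1 reads and 0 input reads, which is at least 23.4-fold higher when the input is set to a floor of 3 reads. Zcchc6, a terminal uridylyltransferase that acts on RNA, had 600 FLI1 reads against 7 input reads. Both ratios rest on few input reads.

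The 10 lowest genes with at least 10 input reads held 0 to 24 FLI1 reads and 10 to 60 input reads, with log2 ratios of -3.09 to -2.46. They were Gm8127, Rhox3f, Olfr179, Gm15319, Gm17695, Gsdmcl1, Dux, Gm3543, Cyp2b13 and Gm10807, none with a high-CpG promoter. At Gm8127, 0 FLI1 reads stood against 13 input reads, at least 12.5-fold lower with FLI1 at the floor of 3 reads. Rhox3f and Gm17695 also had 0 FLI1 reads, which puts them at least 10.6-fold and 9.6-fold lower. Dux, Rhox3f and Cyp2b13 belong to families of near-identical copies, and the FLI1 reads were 50 bp long and the input reads 34 bp, so values at such copies are uncertain. RUNX1, also read at 50 bp, had 0 to 4 reads in these 10 windows.

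ETS words were commonest at the top of the ranking. A word within 250 bp of the start was present at 43.7% of all genes, and at 71.3% of the 1119 genes in the highest of 20 equal rank groups. The words that begin with CC and so hold a CpG were present at 18.4% of all genes, at 57.6% of that group and at 5.72% of the lowest group. The share with any ETS word did not fall all the way: it was 33.2% in the 15th group and 43.4% in the lowest, where the words that begin with CA were present at 39.4%, against 33.1% in the highest group. Since CpG words are commoner where CpG is common, the same was counted inside the high-CpG class. There, the highest decile of 1048 genes held an ETS word at 71.1% of starts (68.2 to 73.8) and the lowest decile at 23.1% (20.6 to 25.8). For the CpG words alone the shares were 58.4% and 7.93%.

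Words of other factors showed smaller contrasts between these deciles. The RUNX words (TGTGGT, and TGCGGT as its variant) were at 29.8% of the highest and 33.4% of the lowest decile. The GATA words (AGATAA, and TGATAA as its variant) were at 10.9% and 10.51%, the NF-E2 word TGAGTCA, read on both strands, at 3.24% and 4.78%, the SP1 word GGGCGG at 83.4% and 81.4%, and the NF-Y word CCAAT at 40.9% and 38.8%. The palindromic NRF1 word was at 12.02% and 5.06%. Over the whole high-CpG class these words were present at 32.0% (RUNX), 10.25% (GATA), 3.67% (NF-E2), 82.9% (SP1), 42.8% (NF-Y) and 13.8% (NRF1). The NRF1 share of the highest decile was thus below that of its class. Over promoters of all classes the shares were 34.3% (RUNX), 23.4% (GATA), 6.16% (NF-E2), 52.6% (SP1), 48.1% (NF-Y) and 7.20% (NRF1). All were counted on both strands in the same 250-bp reach. A word is a match of letters and not a shown site.

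The ratio rose with the number of ETS words. Among high-CpG promoters with 0 words, 5823 in number, the median log2 ratio was 0.94 and 47.5% reached 2-fold. With 1 word the values were 1.41 and 67.7%, with 2 words 1.80 and 83.6%, and with 3 words 2.12 and 89.5%. All 124 high-CpG promoters with 4 or more words reached 2-fold, with a median of 2.35. Summed FLI1 reads went from 2.26 times the input (2.25 to 2.28) at 0 words to 5.83 times at 4 or more, while RUNX1 went from 1.93 times (1.91 to 1.95) to 2.35 times (2.19 to 2.53). The FLI1 sums thus rose far more than the RUNX1 sums over the same windows and the same input.

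The rise was much weaker where CpG was rare. At low-CpG promoters, 4.03% of 4197 genes with 0 words reached 2-fold, 5.76% of those with 1 word, 9.001% with 2 and 14.4% with 3. The medians of these 4 groups were between -0.15 and 0, and the 17 genes with 4 or more words had a median of -0.56 with 4 at 2-fold. The 2 kinds of word also differed. At high-CpG promoters, genes with 1 CpG word reached 2-fold in 79.6% of cases, against 49.5% with 0 CpG words. For words that begin with CA the shares were 65.3% with 1 word and 57.2% with 0. Genes counted for one kind may also hold the other.

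At high-CpG promoters FLI1 density was highest near the single words. Their median offsets from the gene start were -8 bp (CpG words), -3 bp (words beginning with CA) and -25 bp (NRF1 words). Around 1611 single CpG words at high-CpG promoters, FLI1 density reached 7.93 RPKM within 10 bp of the word and 0.875 at 500 bp. The density of RUNX1 at the centre was 2.10 and that of the input 0.380. Around 821 single words of the CAGGAA kind, FLI1 reached 4.26. Around NRF1 words, the only comparison taken, at 1135 promoters, FLI1 reached 3.50 and RUNX1 was 2.12 at the centre. The mean FLI1 density of all high-CpG promoters, in 100-bp bins, already peaked at 3.51 near the start. At low-CpG promoters the values were 1.46 around 280 CpG words and 0.777 around 706 CAGGAA words.

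**Figure D3:**
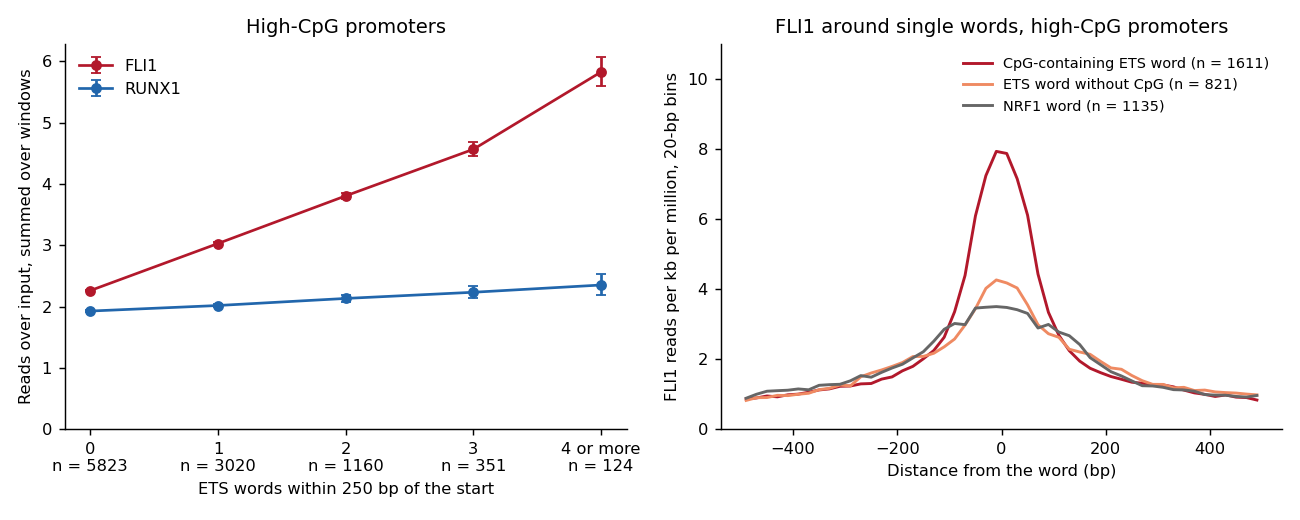
Left, FLI1 and RUNX1 reads over input summed over the windows (vertical axis) by the number of ETS words within 250 bp of the start (horizontal axis) at high-CpG promoters, with 95% counting intervals; FLI1 climbs from 2.26 to 5.83 and RUNX1 from 1.93 to 2.35. Right, FLI1 density (vertical axis, RPKM, 20-bp bins) by distance from single words (horizontal axis, bp), with maxima of 7.93, 4.26 and 3.50.

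The gene lists spread over the ranking by function. The 3 highest medians were of translation initiation, splicing and ribosomal genes. The 58 translation initiation factors had a median log2 ratio of 1.94, the 76 splicing factors 1.93 and the 78 cytosolic ribosomal proteins 1.89, against 0.44 over all genes. At 2-fold or more were 50 initiation factors (86.2%), 66 splicing factors (86.8%) and 73 ribosomal proteins (93.6%), beside 34% of all genes and 59.3% of high-CpG genes. Rpl34, with 293 FLI1, 4 input and 6 RUNX1 reads, was the highest ribosomal gene at 4.17, and Rps2, with 57, 26 and 3 reads, the lowest at -0.37, which became 0.46 over all its starts. The splicing activator Srsf1 had 284, 6 and 12 reads and 3.69, and Eif2s1, a subunit of the initiation factor that brings the initiator tRNA, 592, 26 and 10 reads and 2.89. Averaged over the ribosomal genes, FLI1 peaked at 7.09 RPKM, 14.3 times the flank.

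Other lists of basic cell function lay lower. Medians were 1.58 for proteasome subunits and for RNA polymerase subunits, 1.57 for cell-cycle and mitosis genes, 1.56 for mitochondrial ribosomal proteins, 1.50 for ubiquitin conjugating enzymes, 1.44 for replication and repair genes, 1.42 for aminoacyl-tRNA synthetases, 1.33 for respiratory chain subunits and 1.30 for chaperones and for RAB GTPases. Lysosome and V-ATPase genes stood at 0.96 with 48.8% at 2-fold, and Zfp genes at 0.92 with 47.7%. Replication-dependent histone genes had a median of 1.11 with 36 of 65 (55.4%) at 2-fold over input, but only 18.5% reached 2-fold over their own flanks. Of the 65, 63 had high-CpG promoters, a class with 59.3% at 2-fold over input and 52.8% over flanks, so the first share was near that of the class and the second below it. These genes stand in clusters in the genome, and what their flanks hold was not tested.

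Several lists tied to other tissues stood near or below 0. Low-CpG promoters made up 94.3% of olfactory receptors, 78.0% of hepatocyte genes, 77.1% of keratins and 63.0% of T lymphoid genes, and that class had a median of -0.14 and 5.31% at 2-fold. Of 1087 olfactory receptors, 35 (3.22%) reached 2-fold, with a median of -0.04, and none reached 4-fold. Of these 35, 30 had fewer than 10 input reads, and the share was 0.539% among receptors with at least 10, 0.46% with a pseudocount of 20 and 7.73% over the FLI1 flanks. None of 96 keratins and keratin-associated proteins (median -0.26) and none of 27 T lymphoid genes (-0.30) reached 2-fold. Hepatocyte genes had a median of -0.12 with 3 of 41 at 2-fold. Of these 3, 2 were records of Trf, which encodes transferrin, and the other was Apoh. Over all transcript starts Apoh fell to 0.26 and one of the Trf records to 0.10, both below 2-fold. Cytochrome P450 genes, at -0.31, had the lowest median over input beside the T lymphoid genes. This order depended on the reference: over the FLI1 flanks the medians were 0.26 for cytochrome P450 genes, 0.14 for hepatocyte genes, 0.14 for olfactory receptors and -0.05 for T lymphoid genes, and the lowest was -0.34 for 17 interferon genes.

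High CpG content alone did not place a gene high. Among high-CpG promoters, where 59.3% reached 2-fold, the share was 3 of 25 for HOX cluster genes (median 0.32), 2 of 19 for neuronal genes (0.25), 0 of 14 for collagens (0.03), 2 of 17 for voltage-gated ion channels (-0.04) and 1 of 10 for endothelial genes (0.24). By contrast it was 70 of 71 for ribosomal proteins (1.94). HOX cluster genes had an ETS word at 22.5% of starts and no FLI1 maximum at the start, and their median over all classes was 0.28 over input and -0.10 over the FLI1 flanks. These are transcription factor genes that pattern the embryo along its axis.

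**Figure D4:**
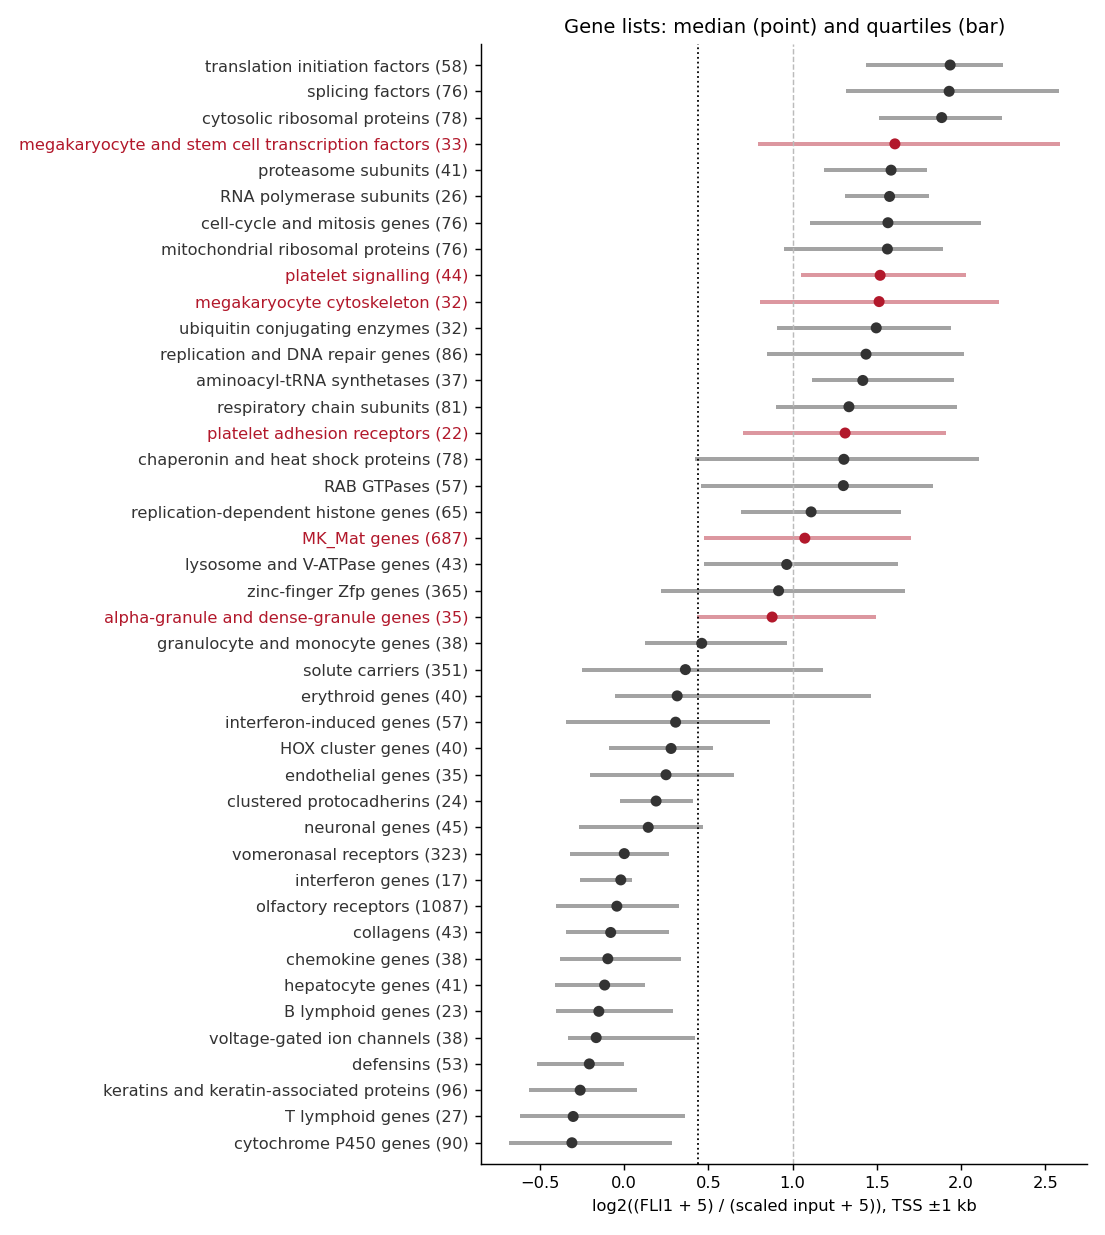
Median log2 ratio (points) and quartiles (bars) of each gene list (horizontal axis), with the number of ranked genes in brackets. Megakaryocyte and platelet lists are in red, the dotted line is the median of all genes at 0.44, and the dashed line marks 2-fold; the medians run from 1.94 for translation initiation factors to -0.31 for cytochrome P450 genes.

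Megakaryocyte and platelet lists all lay above the median of all genes. Transcription factors of megakaryocytes and stem cells had a median of 1.61 with 21 of 33 at 2-fold (63.6%), platelet signalling genes 1.52 with 34 of 44 (77.3%), megakaryocyte cytoskeleton genes 1.51 with 23 of 32 (71.9%), platelet adhesion receptors 1.31 with 13 of 22 (59.1%), and granule genes 0.88 with 17 of 35 (48.6%). All these shares were above the 34% of all genes, but the interval for granule genes (31.4 to 66.0) includes it. The shares of adhesion receptors and transcription factors were near the 59.3% of high-CpG genes. Over their own flanks, 37.1% of granule genes and 45.5% to 59.4% of the other 4 lists reached 2-fold, beside 32% of all genes. None of the genes in these lists was at or below 0.5-fold, beside 3.45% of all genes. In lists of 22 to 44 genes the upper 95% limits were 8.04% to 15.4%, so these counts cannot be told from that share. Summed RUNX1 reads over input were 2.94 for the transcription factor list, against 3.95 for FLI1, and between 1.70 and 2.18 for the other 4 lists.

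Itga2b, the alpha chain of the platelet fibrinogen receptor, had 615 FLI1, 23 input and 13 RUNX1 reads and a log2 ratio of 3.11, the highest of all low-CpG promoters with at least 10 input reads. Its partner chain Itgb3 had 221, 19 and 11 reads and 1.91. Of the chains of the von Willebrand factor receptor, Gp1ba had 365, 25 and 12 reads (2.26) and Gp9 had 319, 28 and 15 (1.91). Its other chains, added after their values were seen, were Gp5 with 285, 21 and 5 reads (2.14) and Gp1bb with 188, 26 and 5 (1.27), the latter below 2-fold at 0.77 over all its starts. The collagen receptor Gp6 had 182, 21 and 5 reads (1.51). In each of these windows FLI1 exceeded the scaled input, and over their own flanks the log2 ratios were 2.74 for Itga2b, 2.69 for Gp6, 2.40 for Gp9, 1.13 for Gp1ba and 0.82 for Itgb3, the last below 2-fold.

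Granule and signalling genes were less uniform. The chemokine gene Pf4 had 549 FLI1, 25 input and 9 RUNX1 reads and 2.84. Its neighbour Ppbp, which starts 3917 bp away and encodes another platelet chemokine, had 98, 36 and 4 reads and -0.08. Vwf, the adhesive ligand stored in granules, had 54, 22 and 5 reads and -0.22 at the start of its gene record. It has 11 annotated starts, and over all of them the value was 0.23. The study's supplement lists a FLI1 site close to the Vwf start it uses. The low value at the record start therefore does not show that FLI1 is absent from Vwf. Rgs18, a regulator of G-protein signalling in platelets, had 323, 12 and 11 reads and 3.05. The tubulin gene Tubb1 stood at 0.82 (142, 27 and 5 reads). Tbxas1, which makes thromboxane, was at 0.96 (78, 13 and 11 reads), but at -0.19 over its own flanks and 0.53 over all its starts. Rab27b, which acts in granule secretion, was at 0.84 (92, 17 and 8 reads) but above 2-fold over its own flanks, at 1.55. Amd1, an enzyme of polyamine synthesis, was at 2.22 (167, 11 and 7 reads).

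Among transcription factors, Nfe2 had 547 FLI1, 23 input and 32 RUNX1 reads and 2.95. Runx1 had 274, 23 and 13 reads and 1.96 at the start of its gene record. Gata1 had 38, 18 and 2 reads and -0.41 there, but 1.04 when the windows of all its transcript starts were joined. The choice of start thus decided on which side of 2-fold Gata1 fell. In the same way Itga2b fell from 3.11 to 1.46 and Nfe2 from 2.95 to 1.83 over all their starts, still above 2-fold, and Itgb3 fell from 1.91 to 0.95, below it.

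The study's list of MK_Mat genes, whose transcripts were higher in mature than in immature megakaryocytes by RNA, gave 687 ranked genes, with 5 entries unmatched. Their median was 1.07, and 370 (53.9%, 50.05 to 57.6) reached 2-fold, against 33.4% of the other 21680 genes. The difference depended on the promoter class. Among high-CpG promoters, 259 of 392 MK_Mat genes (66.1%, 61.1 to 70.7) reached 2-fold, and 59.1% of the others (58.1 to 60.04). At intermediate promoters the shares were 39.4% (31.8 to 47.4) and 21.5% (20.3 to 22.8). At low-CpG promoters they were 48 of 135 (35.6%, 27.5 to 44.2) and 343 of 7226 (4.75%, 4.27 to 5.26).

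With the FLI1 flanks as reference the order among high-CpG promoters turned, to 48.2% of MK_Mat genes against 52.9% of the others, with overlapping intervals (43.2 to 53.3 and 52.0 to 53.9) and a background of 52.8% over the class. It held at intermediate promoters (37.5% and 23.1%, background 23.7%) and at low-CpG promoters (34.1% and 6.93%), where the background over all low-CpG genes was 7.43%. RUNX1 moved with FLI1 at low-CpG promoters, where its summed reads were 1.27 times the input for MK_Mat genes and 0.901 times for the others, and FLI1 reads 1.97 and 0.949 times. An ETS word lay within 250 bp of 58.5% of the low-CpG MK_Mat starts (49.7 to 66.9) and of 42.7% of the other low-CpG starts (41.5 to 43.8). At high-CpG promoters that order was the opposite, 37.8% (32.9 to 42.8) and 44.7% (43.7 to 45.7).

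**Figure D5:**
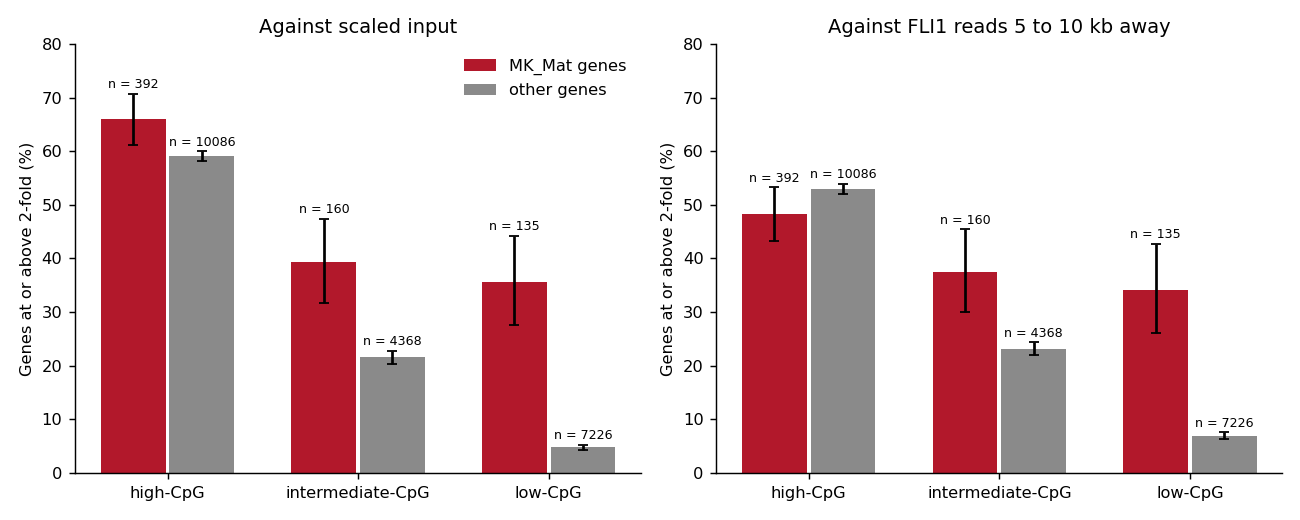
Share of genes at or above 2-fold (vertical axis, percent, with 95% exact binomial intervals) for MK_Mat genes and all other genes by CpG class (horizontal axis), over scaled input on the left and over FLI1 reads 5 to 10 kb away on the right. The bars differ most at low-CpG promoters, 35.6% and 4.75% on the left and 34.1% and 6.93% on the right.

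The 391 low-CpG genes at 2-fold or more had a median of 140 FLI1, 17 input and 5 RUNX1 reads, and in 118 of them the input was below 10 reads. Over their own flanks, 50.9% of them reached 2-fold, against 4.99% of the low-CpG genes below 2-fold over input. Both ratios share the FLI1 count of the window, so the selection itself favours this contrast and it is no separate support. MK_Mat genes made up 48 of the 391 (12.3%) and 87 of the 6970 low-CpG genes below 2-fold (1.25%). Against the background of 5.31%, 8 of 10 low-CpG platelet adhesion receptors were called (Itga2b, Gp1ba, Treml1, Gp9, Gp6, Pecam1, Fcer1g and Itga6, but neither Cd36 nor Selp). Of 12 low-CpG platelet signalling genes, 9 were called, among them Rgs18, Pla2g4a, P2rx1, Fermt3 and Vav1. Of 8 granule genes, 3 were called, namely Pf4, the secretion factor Unc13d and coagulation factor F5. Of 5 low-CpG megakaryocyte and stem cell transcription factors, Nfe2 was called and Ets1, Lmo2, Mecom and Gata1 were not, and of 3 low-CpG cytoskeleton genes Fermt3 and Was were called and Tubb1 was not. Of the called genes named here, Pla2g4a (0.80), Vav1 (0.67), F5 (0.12) and Itga6 (0.11) were below 2-fold over their own flanks.

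Other lineage lists were counted in the same low-CpG class, again beside its 5.31%. Erythroid genes as a whole had a median of 0.31 with 14 of 40 at 2-fold, near the 34% of all genes. Of 11 intermediate ones, 4 reached 2-fold (36.4%, beside 22.2% of that class). Of 12 high-CpG ones, 10 did so (83.3%, beside 59.3%), such as the heme synthesis genes Slc25a38 (2.88) and Uros (2.23). The Uros call depended on the window, with 0.65 over all its starts and 0.73 within 500 bp. None of 17 low-CpG erythroid genes reached 2-fold, among them the globin genes, Alas2 and Slc4a1. None of 32 low-CpG hepatocyte genes and none of 17 low-CpG T lymphoid genes did so, and 1 of 18 B lymphoid genes, Bank1. In lists of this size a share of 5.31% is 1 or 2 genes, so these counts are near it. Of 28 low-CpG granulocyte and monocyte genes, 7 reached 2-fold, among them Itgb2, Mpo, Sfpi1, S100a9 and S100a8, of which the last pair were below 2-fold over their own flanks, at 0.87 and 0.51. Itgb2, the shared chain of leukocyte integrins, had 270 FLI1, 18 input and 9 RUNX1 reads and 2.27, and myeloperoxidase, Mpo, 180, 13 and 9 reads and 2.12. With all transcript starts joined, Mpo fell to 0.42, below 2-fold, and Itgb2 stood at 2.22. The other 21 did not reach 2-fold, Elane, Ltf and Camp among them. The study notes some residual granulocytes and macrophages in its cultures, and their part in these values was not tested.

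The highest 20 low-CpG starts with at least 10 input reads, a view chosen after the values were seen, held 177 to 615 FLI1 reads and 10 to 28 input reads, with log2 ratios of 2.37 to 3.11. Besides Itga2b, Rgs18, Nfe2, Pf4 and Unc13d they included Ctla2a, Myct1, the arachidonate-releasing phospholipase Pla2g4a, Cd93, the C-type lectin Clec4e, Rasgrp4, Treml2, Laptm5 and the corepressor Cbfa2t3. An ETS word within 250 bp was present at 15 of the 20, and all 20 had 5 or more RUNX1 reads. Over all 391 called low-CpG genes that share was 56.8% (51.7 to 61.7), against 42.2% (41.0 to 43.4) of the low-CpG genes below 2-fold. The RUNX words followed a like order at 44.2% (39.3 to 49.3) and 36.7% (35.6 to 37.8), as did the SP1 word at 18.2% (14.5 to 22.3) and 11.7% (10.99 to 12.5). The NF-Y word had the opposite order at 47.6% (42.5 to 52.7) and 54.8% (53.7 to 56.0), and the GATA words did not separate beyond their intervals at 43.5% (38.5 to 48.6) and 40.9% (39.8 to 42.1). The words themselves sat at varied places, 189 bp downstream of the start at Itga2b, 244 bp downstream at Nfe2, 16 bp downstream at Pf4 and 13 bp upstream at Gp1ba.

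Position in the genome also moved with the ranking. The 1599 genes that start head to head with another gene had a median of 1.54, and within the high-CpG class 78.5% of them reached 2-fold against 56.5% of the rest. The 932 genes on chromosome X had a median of 0.14 with 21.6% at 2-fold, against 34% of all genes. Only 27.4% of them were high-CpG genes, against 46.8% of all genes, and 49.8% of those reached 2-fold, against 59.3% over the class. Windows on X also held fewer reads, with medians of 39 FLI1 and 12 input against 70 and 19 over all genes. In 320 of the X windows input was below 10 reads, and the part of this in the X values was not tested. Chromosomes 7 and 14 had 26.5% at 2-fold and also fewer high-CpG genes (34.6% and 37.8%), but of those 60.1% and 58.1% reached 2-fold, near the share of the class.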

How the data were processed

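The authors describe mapping reads to mm9 with Bowtie (version not given in the sources used here) and keeping uniquely mapped, non-redundant reads. The input file nevertheless held repeated positions. The deposited files list read positions and strands. The submitters' notes also name SICER 1.1 and MACS 1.4, and no peak list entered here. Reads were read with Python 3.11.15 (numpy 2.4.6, pandas 2.3.3, scipy 1.17.1, matplotlib 3.10.9). Mitochondrial reads were left out, and input positions repeated on a strand, 3.24% of its reads, were reduced to 1. The 5' end of a read decided its window. Pseudocount 5 shrinks the ratio of windows with few reads. Values at repeated starts are uncertain. Gm10800, for example, held 1066 FLI1 and 583 input reads with input repeats reduced to 1, against medians of 70 and 19.

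A promoter was high-CpG where any 500-bp interval of its window had an observed over expected CpG of at least 0.75 and a GC content of at least 55%, low-CpG where none reached 0.48, and intermediate otherwise. Shares carry exact binomial 95% intervals (Clopper-Pearson), and ratios of sums intervals from the conditional binomial distribution. The former treat genes as independent, the latter cover read-counting error only. Of 41 lists, 12 were lists of gene symbols and the others were patterns of gene names, and both were matched to the annotation. MK_Mat entries were looked up by RefSeq accession in a table of gene names, and 625 were matched to the annotation by the symbol in that table, 60 by a synonym and 2 by the symbol the list gives, which left 5 unmatched. Genes were named as the 20 highest and 10 lowest with at least 10 input reads, up to 3 highest and the lowest of each list, and 17 genes of megakaryocytes; further genes were named after their values were seen where a count of called genes needed them. The ranking, the lists and this rule were chosen with earlier results of these data known. Counting was tested on simulated reads. Sequences were read from the mm9 genome. Some genes that the rule names are not reported here.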

Additional observations from a re-analysis of the deposited data

How the results depend on the processing

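No paired analysis was possible because each group has 1 library, and no library could be left out. Under 11 other settings, and 2 more chosen after seeing the data, the median of all genes kept its sign. With the FLI1 flanks as reference, the medians of low-CpG promoters, olfactory receptors, collagens, and hepatocyte, B lymphoid, chemokine and cytochrome P450 genes turned from below to above 0, and that of HOX cluster genes from above to below. Pseudocount 1 gave a median log2 ratio of 0.48 and shares at 2-fold of 61.3% (high-CpG), 7.04% (low-CpG) and 4.51% (olfactory receptors). Pseudocount 20 gave 1407 genes at 4-fold, 159 at or below 0.5-fold, a median of 0.35, and shares of 45.1% (MK_Mat), 52.3%, 3.15% and 0.46%. Windows of 500 bp either side gave 4356 genes at 4-fold, a median of 0.59, shares of 61.3%, 68.4%, 7.24% and 4.88%, and ETS words at 74.8% of the highest twentieth. Windows of 2 kb gave 615, 0.30, 38.0%, 41.6% and 3.40%, with ETS words at 68.4%. Joined windows of all transcript starts gave 1211 genes at 4-fold, a median of 0.27, and shares of 40% (MK_Mat) and 41.4% (high-CpG). The FLI1 flanks as reference gave 42.9%, 52.8%, 7.43% and 7.73% from MK_Mat to olfactory receptors, and 77.3% with ETS words. Thinning FLI1 to the input depth gave a median of 0.39 and 49.5%, 55.2%, 4.32% and 1.66%. At least 10 input reads gave a median of 0.47, 4.51% (low-CpG), 0.539% (olfactory receptors), 75.9% with ETS words, and a RUNX1 sum of 1.47 times the input against 1.51. Without genes that have another start within 1 kb, the median was 0.31, the high-CpG share 54.9% and the RUNX1 sum 1.44. Leaving out windows at 0 in both gave a median of 0.47.

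With repeated input positions kept, the RUNX1 sum over input was 1.06 and the sums at intermediate promoters fell below the input, because 86.8% of the 197637 reads this added fell on 2 starts, Gm10800 and Gm10801 on chromosome 2. For the causes of the other shifts, no test was made. Read shift, the scaling by gene-free bins and repeated positions moved no share at 2-fold, and not the median of all genes, beyond its interval. Of 41 further list shares under 13 alternatives, 462 of 533 values stayed within the 95% interval of the reported share; of the 71 that did not, 18 came from the 2-kb windows and 15 from the joined start windows. The sums were not recomputed for the remaining settings, nor the profiles for any. The depth of the RUNX1 file used here, 4 reads in a typical window, allows only sums over many genes. For FLI1 over input, 1 gene's ratio carries a median counting error of 0.34 (log2).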
